A study of Mus musculus with 6 samples.

Results

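The MHC antigen presentation genes of cultured neonatal rat heart cells were followed through 6 RNA sequencing libraries. They were taken from the deposited table as every row whose symbol begins with RT1-, the name of the rat major histocompatibility complex (MHC), plus 14 named partners, and they number 45 of 33682 rows. Of these, 33 belong to class I (21 RT1- rows for class I or class I-like chains and 12 partner genes) and 12 to class II (10 RT1- rows, Cd74 and Ciita). The sequenced cells are labelled wild type throughout and grew in conditioned medium, meaning supernatant taken from another culture. It came from bone marrow-derived mast cells treated with the cytokine TNF-a. The mast cells were wild type for 3 libraries (WT medium) and ALOX5-/- for the other 3 (Alox5KO medium), ALOX5 being the enzyme that starts leukotriene synthesis. Every group therefore had medium from mast cells treated with TNF-a, and no library without such medium was analysed here. The sample titles do not say whether TNF-a remained in that medium. Rat strain, number of animals and time in the medium are not given in the sources used here.

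MHC class I molecules show peptides from inside the cell to CD8 T cells. Cytosolic proteins are cut by the proteasome, which interferon-gamma and TNF can remodel into the immunoproteasome by exchanging its catalytic subunits. The TAP transporter carries the peptides into the endoplasmic reticulum, where tapasin and chaperones load them onto a heavy chain paired with beta-2 microglobulin. Class II molecules show peptides taken up from outside, are made mainly by professional antigen-presenting cells and depend on the coactivator CIITA. Heavy chain genes of the rat are many and closely alike, and which of them are present differs between MHC haplotypes.

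Libraries held between 13284088 and 15766187 reads, recovered from the deposited FPKM values (fragments scaled to gene length and to library size). The labels call the cells cardiomyocytes and the design text names a fibroblast culture, and Col1a1 reached 2940 to 4052 FPKM while the most abundant of 12 cardiomyocyte markers, Tnnt2, had 16.1 to 91.6. Ptprc, which encodes the leukocyte antigen CD45, was listed between 0.0411 and 0.196 FPKM. The other lists of blood and vessel cells are given beside the results they bear on. Alox5 itself had 2.65, 3.28 and 3.47 FPKM with WT medium and 0.436, 0.288 and 0.154 with Alox5KO medium, which checks no label because the knockout was in the cells that made the medium.

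Each of the 22 tested class I rows had reads in all 6 libraries, while class II rows were listed at low values in both media. Rows averaging 1 FPKM or more across the 6 libraries were tested: 22 of the 33 class I rows and 0 of the 12 class II rows. With Alox5KO medium 4 of the 22 class I rows fell and 1 rose, which is 22.7% of them. The same limma fit called 20.7% of its 12341 genes at a Benjamini-Hochberg (BH) adjusted p of 0.05, 10% higher and 10.6% lower. The share of class I genes called was thus near the background. All 3 Alox5KO-medium values lay below all 3 WT-medium values for 6 of the 22 rows and above them for 1, while each pattern held for 18.8% of all tested genes. The median log2 fold change of the 22 rows was -0.21, against -0.00082 for all tested genes, with 15 values below 0 and 7 above. All fold changes are Alox5KO medium minus WT medium on the log2(FPKM + 1) scale, which understates changes of low values. Leaving out WT-medium replicate 1 left 0 of the 22 called by limma, with 5 at an unadjusted p under 0.05. Calls also fell over the whole table in that fit, to 791 genes higher and 862 lower, against 1238 and 1313 with all 6 libraries. The rows called lower numbered 1 without WT-medium replicate 2 or Alox5KO-medium replicate 2, 2 without Alox5KO-medium replicate 1, and 5 without WT-medium replicate 3. The labels do not say that replicates came from separate cultures, so p-values reflect the spread among the libraries at hand, and that spread may be technical.

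**Figure D1:**
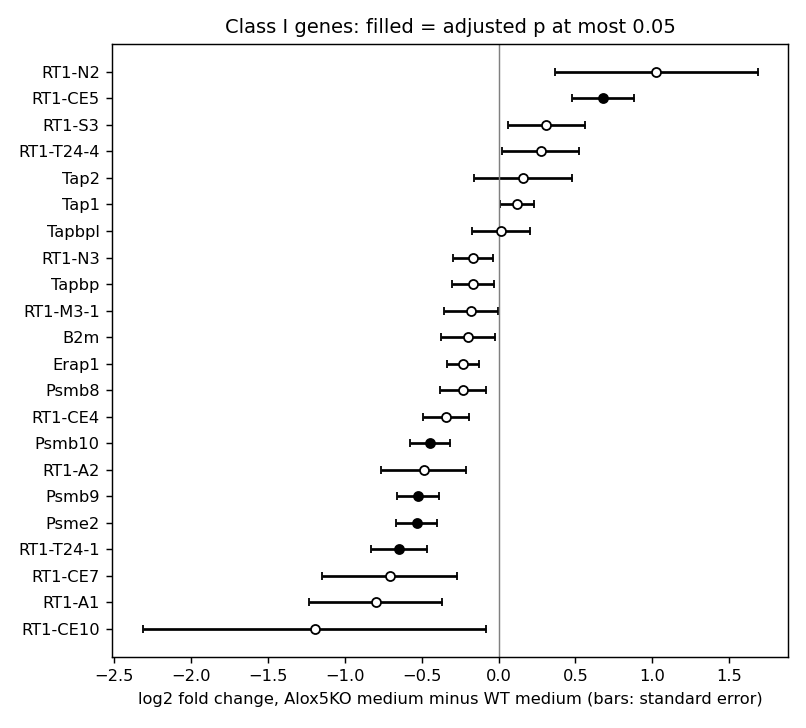
Log2 fold change (x axis, Alox5KO medium minus WT medium, limma on log2(FPKM + 1)) of each of the 22 tested class I rows, with bars for the standard error and filled points for adjusted p of at most 0.05. Psme2, Psmb9, Psmb10 and RT1-T24-1 lie below 0 and RT1-CE5 above it, while the widest bar is that of RT1-CE10.

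Of the 10 tested partner genes 3 fell: Psmb9 and Psmb10, which are 2 of the 3 inducible subunits, and Psme2. That is 30% of the 10, against 10.6% of all genes called lower. The other 7 did not pass, and Psme1 was not tested. The falls numbered 0 without the filter of 1 FPKM and 0 without WT-medium replicate 1 or 2. Calls over all genes were also fewer without WT-medium replicate 1. They numbered 1 without Alox5KO-medium replicate 2, 2 without Alox5KO-medium replicate 1, and 3 without replicate 3 of either medium. Psme2 (chromosome 15, 34265557 to 34269851) encodes the beta subunit of the PA28 activator, which opens the proteasome core. It had 91.8, 101.5 and 85.8 FPKM with WT medium and 73.1, 52.7 and 67.7 with Alox5KO medium, so the groups did not overlap. Groups apart in either direction were seen for 37.6% of all tested genes. Psme2 changed by -0.53 ± 0.13 (log2, SE) at a BH-adjusted p of 0.021 in limma, and the call was lost without WT-medium replicate 1 or 2 (adjusted p = 0.065 and 0.078, limma).

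Psmb9 (chromosome 20, 3973420 to 3978845) encodes the immunoproteasome subunit that takes the place of Psmb6. In the WT-medium libraries it stood at 14.0, 14.3 and 12.5 FPKM, and at 9.89, 7.35 and 10.5 in those of Alox5KO medium, again without overlap. In limma it fell by 0.52 ± 0.14 (log2, SE), and the BH-adjusted p was 0.026. The adjusted p in limma was 0.091 and 0.087 with the first and the second WT-medium library left out, and 0.053 with Alox5KO-medium replicate 2 left out. Psmb10 (chromosome 19, 37909546 to 37912027), which replaces Psmb7, had 35.5, 38.2 and 30.6 FPKM with WT medium and 22.8, 23.2 and 29.8 with Alox5KO medium. The lowest WT-medium value of Psmb10 lay just above the highest Alox5KO-medium value. It fell by 0.45 ± 0.13 (log2, SE, BH-adjusted p = 0.040 in limma) and missed the threshold when replicate 1 or 2 of either medium was left out, at adjusted p between 0.107 and 0.136 (limma).

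The third inducible subunit, Psmb8, did not pass the test. It had 12.04, 11.8 and 15.5 FPKM with WT medium and 10.3, 9.47 and 13.4 with Alox5KO medium, and the groups overlapped (log2 fold change -0.23, BH-adjusted p = 0.34 in limma). Psmb8 lies 943 bases beyond the end of Tap1 on chromosome 20, and Tap1 and Psmb9 face away from each other with 189 bases between their starts. Tap1, a subunit of the peptide transporter, had 10.1, 9.92 and 8.70 FPKM with WT medium and 9.56, 10.6 and 11.3 with Alox5KO medium, which is 0.12 ± 0.11 on the log2 scale (SE, BH-adjusted p = 0.50 in limma). Differences in fold change between these neighbours were not tested.

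**Figure D2:**
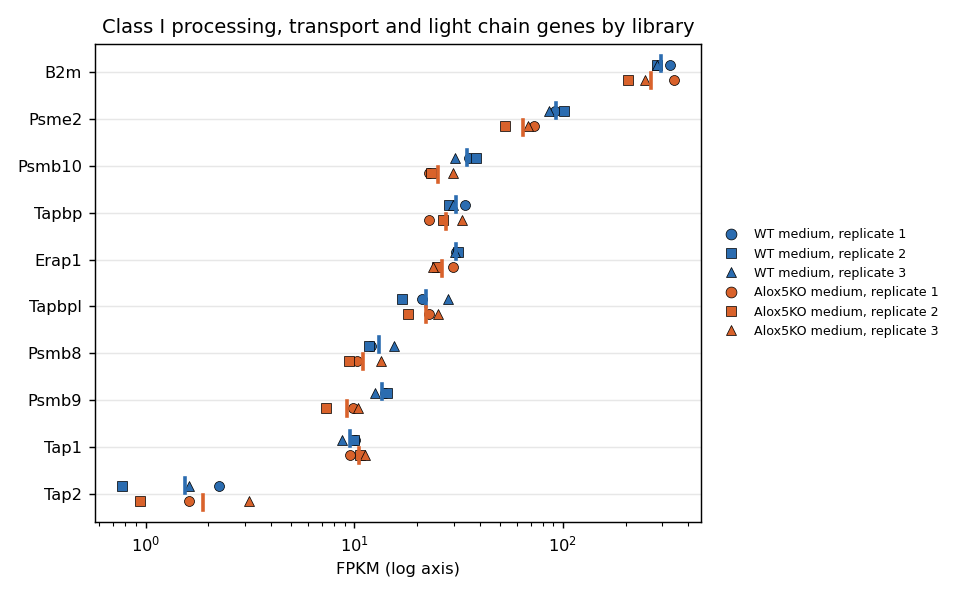
FPKM (x axis, log scale) of the 10 tested partner genes of class I in each library, with a symbol per replicate and a bar at the mean of each group. Psme2, Psmb10, Psmb9 and Erap1 have all 3 Alox5KO-medium libraries below all 3 WT-medium libraries, although Erap1 did not pass the test. B2m is the most abundant, at 205 to 340 FPKM.

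Psme1, the alpha partner of Psme2, was listed far below it. It had 6 reads in the WT-medium libraries and 2 in the Alox5KO-medium libraries, or at most 0.228 FPKM, although both subunits build the same ring. A row on chromosome 17 whose deposited protein match is Psme1 had 0.743 to 1.48 FPKM. Rpl8, a ribosomal protein gene every cell uses, was likewise listed at 0 in 4 libraries. A low listed value in this table therefore does not show that a transcript was scarce, and no group difference was read from Psme1.

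The catalytic subunits that the inducible ones replace did not pass the test. Of 7 constitutive catalytic, activator and assembly genes 0 were called by limma, against 20.7% of all genes. Limma-voom called 0 of them as well, and 0 had an unadjusted p under 0.05 in limma. Psmb6 had 174 ± 18.1 and 147 ± 10.6 FPKM with WT and Alox5KO medium, and Psmb5 156 ± 12.3 and 135 ± 8.65 (SD, n = 3 per group, log2 fold changes -0.24 and -0.21). The nuclear activator gene Psme3 and the assembly factor Pomp had log2 fold changes of 0.25 and -0.30. Of the 11 structural subunits of the core 0 were called by limma or limma-voom, against 20.7% of all genes in limma. Their median log2 fold change was -0.06, and 0 had an unadjusted p under 0.05 in limma. Psmb4 and Psmb1 were the most abundant of them, at 280 ± 24.9 and 276 ± 8.66 and at 214 ± 18.1 and 203 ± 10.8 FPKM (SD, n = 3 per group), and Psma5, Psma6 and Psmb3 had log2 fold changes of -0.18, -0.14 and -0.12.

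Set against the subunit it replaces, Psmb9 stood at 7.58, 7.72 and 8.16% of the FPKM of Psmb6 with WT medium and at 7.24, 5.01 and 6.64% with Alox5KO medium. Psmb10 stood at 48.3, 47.3 and 52.1% of Psmb7 and at 28.5, 36.3 and 45.5%. Both ratios were lower in every Alox5KO-medium library. The exact permutation test, two-sided, gave p = 0.10 for each, which is the smallest value 3 libraries against 3 allow, and 0.15 adjusted over the 3 ratios computed. Psmb8 stood at 7.25, 7.39 and 10.9% of Psmb5 and at 7.93, 7.24 and 9.23% (exact permutation test, p = 0.80).

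Peptide transport, trimming and loading genes of the rule had smaller differences. B2m, the light chain shared by all class I molecules, was the 279th row of the table by mean level. It had 326, 282 and 283 FPKM with WT medium and 340, 205 and 248 with Alox5KO medium, and the highest and the lowest value were both in the latter group (log2 fold change -0.20 ± 0.18 SE, BH-adjusted p = 0.49 in limma). Tap2, the other transporter subunit, was low and uneven, from 0.774 to 3.12 FPKM. Tapbp (tapasin) and Tapbpl (the related editor TAPBPR) had 30.7 ± 2.85 and 22.1 ± 5.68 FPKM with WT medium and 27.4 ± 5.00 and 22.1 ± 3.56 with Alox5KO medium (SD, n = 3 per group). Erap1, which trims peptides in the endoplasmic reticulum, had 30.6, 31.5 and 30.3 FPKM with WT medium and 29.9, 25.0 and 23.7 with Alox5KO medium. Its groups did not overlap, but the log2 fold change of -0.23 missed the threshold (BH-adjusted p = 0.17 in limma). Nlrc5, the coactivator that drives class I promoters, had 5 to 10 reads per WT-medium library and 8 to 18 per Alox5KO-medium library, too few for the filter, and tested without it had a log2 fold change of 0.08 (BH-adjusted p = 0.45 in limma).

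Chaperones that help to fold and load class I chains, listed apart from the rule, fell. Of 7 such genes 6 were tested, and all 6 fell, against a background of 10.6%, while Mogs was below the filter. With any 1 library left out, the falls numbered 4 or 5. Calr, calreticulin of the loading complex, had 1361 ± 91.8 FPKM with WT medium and 754 ± 35.6 with Alox5KO medium (SD, n = 3 per group), which is a fall of 0.85 ± 0.11 (log2, SE, BH-adjusted p = 5.7e-04 in limma). Pdia3, the thiol oxidoreductase ERp57 that pairs with tapasin, fell by 0.54, the general chaperone Hspa5 by 0.93 and the folding sensor Uggt1 by 0.84. These genes serve glycoprotein folding at large and not class I alone. Among 7 genes that trim peptides in the cytosol or endosomes, Blmh fell by 0.47 and 6 did not pass. So 14.3% were called, against 20.7% of all genes. Among the 6 was Lap3, which is interferon-induced, at 68.3 ± 3.11 and 69.7 ± 6.02 FPKM (SD, n = 3 per group). Thop1, Tpp2, Nrdc and Npepps had log2 fold changes of -0.33, -0.22, -0.12 and 0.09.

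The class I chain rows varied widely between libraries of the same medium. Of 21 rows 12 passed the filter, 9 did not, and limma called 1 of the 12 higher and 1 lower, or 16.7%, against 20.7% of all genes. The median within-group SD of the 12 rows was 0.39 on the log2(FPKM + 1) scale, against 0.20 for the 10 partner genes and 0.16 for all tested genes. RT1-CE10, RT1-N2, RT1-A1 and RT1-CE7 were among the 5% of tested genes with the largest within-group SD. Of the 12 rows, 6 overlap another annotated row on the same strand, so reads of near-identical or overlapping copies could have been split or dropped in counting.

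RT1-CE10 showed the widest range. It had 13.4, 10.7 and 0.934 FPKM in WT-medium replicates 1, 2 and 3, and 0.519, 7.29 and 1.15 in Alox5KO-medium replicates 1, 2 and 3. High values were thus those of WT-medium replicates 1 and 2 and Alox5KO-medium replicate 2, and the highest library was 25.9 times the lowest. RT1-A1, a classical class Ia gene, had 3.81, 4.05 and 0.965 FPKM with WT medium and 0.605, 2.13 and 0.80 with Alox5KO medium, with the same 3 libraries on top. RT1-CE7 had 5.83, 4.96 and 1.69 FPKM with WT medium and 0.914, 3.07 and 2.24 with Alox5KO medium, in which the same libraries led again.

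Other class I rows had the opposite order. RT1-N2, a class Ib gene, had 0.606, 0.381 and 3.23 FPKM with WT medium and 5.88, 0.959 and 4.87 with Alox5KO medium, so it was lowest in the 3 libraries where RT1-CE10 was highest. RT1-S3, another class Ib gene, had 8.69, 7.87 and 14.1 FPKM with WT medium and 14.5, 9.11 and 14.7 with Alox5KO medium, also lowest in those libraries. RT1-T24-4 had 1.39, 1.39 and 2.79 FPKM with WT medium and 2.86, 1.47 and 3.02 with Alox5KO medium. This division of the libraries ran across both media, and because it was seen in the values it was not tested. None of these 6 rows passed the test between media, the log2 fold changes running from -1.20 for RT1-CE10 to 1.03 for RT1-N2.

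**Figure D3:**
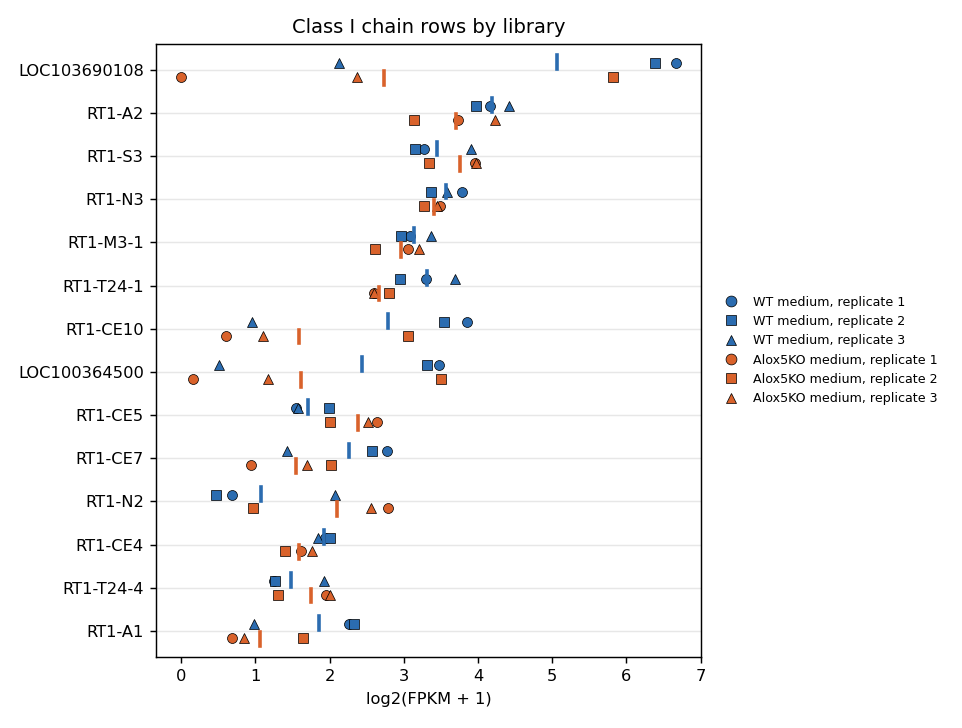
Log2(FPKM + 1) (x axis) of the 12 tested RT1- class I rows and of LOC103690108 and LOC100364500, with a symbol per library and a bar at the mean of each group. WT-medium replicates 1 and 2 and Alox5KO-medium replicate 2 lie to the right for LOC103690108, RT1-CE10, LOC100364500, RT1-CE7 and RT1-A1, and to the left for RT1-N2, RT1-S3 and RT1-T24-4.

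The class I chain row with the highest mean over all 6 libraries lay outside the RT1- names, a rank that rests on 3 of them. Besides the 21 RT1- rows, 26 rows have a class I histocompatibility antigen as their deposited protein match, and 5 of them passed the filter. LOC103690108, described as a class I chain like the non-RT1.A alpha-1 chain, had 101.2, 82.4 and 3.37 FPKM with WT medium and 0, 55.7 and 4.18 with Alox5KO medium. LOC100364500, described as like RT1-CE11, had 10.1, 8.96 and 0.420 FPKM and 0.114, 10.3 and 1.26. Both were chosen after their values were seen, and both were high in the libraries that were high for RT1-CE10. LOC103690108 held 48.7, 47.5 and 41.9% of the summed class I FPKM in those 3 libraries and at most 4.81% in the others.

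The same division of libraries was not confined to the chain loci. Over all 12341 tested genes the second principal component, an axis of shared variation, held 11.7% of the variance. It stood at 8.48 and 11.1 in WT-medium replicates 1 and 2 and at 17.0 in Alox5KO-medium replicate 2. WT-medium replicate 3 had -25.0, and Alox5KO-medium replicates 1 and 3 had -2.52 and -9.09. How many genes follow this division was not counted. Micb, a class I-like gene on chromosome 1, had 1.24, 1.58 and 3.40 FPKM with WT medium and 3.85, 1.60 and 3.53 with Alox5KO medium. Thy1, a surface marker of fibroblasts, had 31.4, 22.1 and 70.4 FPKM with WT medium and 96.4, 32.7 and 91.6 with Alox5KO medium. Both were named after their values were seen, and both were lowest in WT-medium replicates 1 and 2 and Alox5KO-medium replicate 2. The part of cell makeup in this division was not tested.

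Summed over the 21 RT1- rows, the class I chain level was 86.8, 75.0 and 82.4 FPKM with WT medium and 68.8, 60.7 and 76.0 with Alox5KO medium. The ranges overlapped by a narrow margin, and the log2 difference of -0.25 compares with a pooled within-group SD of 0.14. With the 26 further rows added, the sums were 208, 174 and 91.0 FPKM and 76.1, 133 and 87.0, or 157 ± 60.0 and 98.7 ± 30.1 (SD, n = 3 per group). The SD of the WT-medium libraries was then about as large as the difference between the group means.

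**Figure D4:**
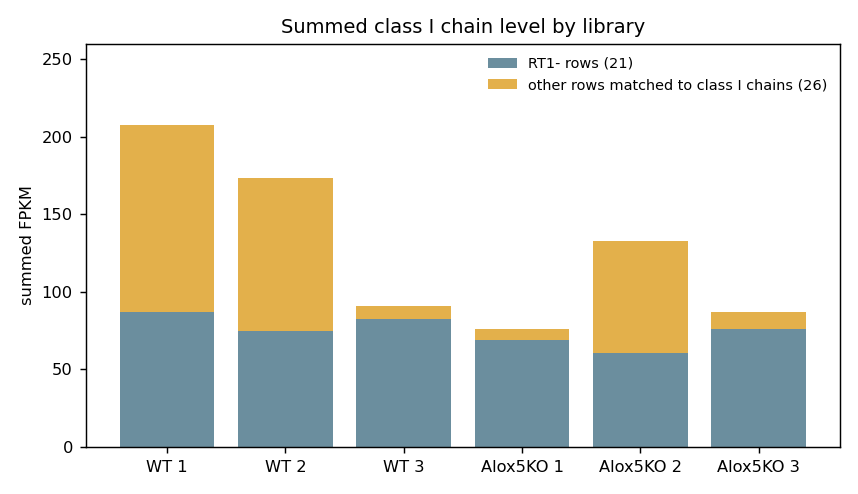
Summed FPKM of class I chain rows (y axis, from 0) in each library, stacked as the 21 RT1- rows and the 26 other rows with a class I protein match. The RT1- rows give 60.7 to 86.8 FPKM in every library, while the other rows add 72.3 to 121 in WT-medium replicates 1 and 2 and Alox5KO-medium replicate 2 and at most 11.01 elsewhere.

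Among the remaining chain rows RT1-T24-1 fell and RT1-CE5 rose. RT1-T24-1 had 8.84, 6.72 and 11.9 FPKM with WT medium and 5.08, 5.94 and 5.03 with Alox5KO medium, without overlap. It fell by 0.65 ± 0.18 (log2, SE, BH-adjusted p = 0.033 in limma). The call was kept with a library left out only without WT-medium replicate 2 (adjusted p = 0.0096, limma), and otherwise the adjusted p ran from 0.051 to 0.109 (limma). RT1-CE5 had 1.93, 2.96 and 1.99 FPKM with WT medium and 5.21, 3.01 and 4.72 with Alox5KO medium, the nearest pair being 2.96 and 3.01. It rose by 0.68 ± 0.20 (log2, SE, BH-adjusted p = 0.042 in limma) and missed the threshold without any of WT-medium replicates 1 and 3 and Alox5KO-medium replicates 1 and 3, at adjusted p between 0.098 and 0.141 (limma). RT1-T24-1 (chromosome 20, 3242492 to 3282523) shares its strand and part of its span with another class I row. RT1-CE5 (chromosome 20, 4892702 to 4896991) lies within the spans of RT1-CE1 and RT1-CE4 and overlaps most of its length with RT1-CE7. Both calls, of RT1-T24-1 and of RT1-CE5, thus rest on reads that could have been split.

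RT1-A2, a classical class Ia gene with the highest mean of the RT1- rows over all 6 libraries, had 16.9, 14.7 and 20.4 FPKM with WT medium and 12.2, 7.83 and 17.8 with Alox5KO medium. It did not pass the test, with a log2 fold change of -0.49 (BH-adjusted p = 0.29 in limma), whereas with the replicate number as a block its adjusted p was 0.032 (limma). RT1-N3 and RT1-M3-1, class Ib genes, of which M3 is known in the mouse for binding formylated peptides, had 11.01 ± 1.76 and 7.85 ± 1.29 FPKM with WT medium and 9.64 ± 0.835 and 6.88 ± 1.58 with Alox5KO medium (SD, n = 3 per group). RT1-CE4 had 2.84, 3.00 and 2.60 FPKM with WT medium and 2.06, 1.63 and 2.38 with Alox5KO medium, without overlap, and missed the threshold (log2 fold change -0.34, BH-adjusted p = 0.15 in limma). Of the 9 chain rows below the filter RT1-M6-2, RT1-T24-3, RT1-CE1 and RT1-M6-1 had at least 10 reads in a library. RT1-CE1 had 45 of its 56 reads in Alox5KO-medium replicate 2, and RT1-T24-3 had 31 of its 63 there. The remaining 5 rows, RT1-CE3, RT1-S2, RT1-M2, RT1-M4 and RT1-M5, had at most 6 reads in any library.

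Class II rows were listed at low values in both media, which in this table does not show that their transcripts were scarce. Reads over the 12 rows together numbered 6, 25 and 35 with WT medium and 11, 13 and 18 with Alox5KO medium. RT1-Ba, RT1-Da, RT1-Db2, RT1-DOa, RT1-DOb and RT1-Ha were listed at 0 in all 6. For scale, 3 reads on a transcript of 1 kilobase correspond to 0.185 to 0.228 FPKM, counting error alone considered. Cd74, the invariant chain, had 0 to 8 reads per library and Ciita 0 to 4. RT1-DMa, which helps class II peptide exchange, had 65 of the 108 class II reads, namely 1, 22 and 26 with WT medium and 3, 2 and 11 with Alox5KO medium. Its highest levels were 0.968 and 1.04 FPKM, in WT-medium replicates 2 and 3. Tested without the filter, 6 class II rows entered limma, of which 0 were called and 0 had an unadjusted p under 0.05. Of the marker genes of B and T cells, 8 of the 11 with a row were listed at 0 in all libraries, and Lck, the most abundant, had 0.178 to 0.548 FPKM. Proteases of class II processing, which also serve lysosomes in general, were abundant: Ctsl had 488 ± 45.9 and 461 ± 37.3 FPKM and Ctsb 286 ± 6.32 and 273 ± 55.1 (SD, n = 3 per group). Of 4 tested genes of that list limma and limma-voom each called 0, against 20.7% of all genes in limma. An unadjusted p under 0.05 in limma was seen for 1 of the 4. That gene was Ifi30, a thiol reductase (log2 fold change 0.31), which was called higher with TPM scaling and without Alox5KO-medium replicate 2, and Lgmn had one of -0.16.

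Regulators of MHC genes moved in both directions. Of 12 tested genes on that list 1 rose and 2 fell, or 25%, against 20.7% of all genes, and 2 rose without Alox5KO-medium replicate 2. Irf9, the DNA-binding part of the interferon-stimulated complex, had 13.2, 10.5 and 9.48 FPKM with WT medium and 23.6, 20.4 and 26.2 with Alox5KO medium, well apart. It rose by 1.02 ± 0.14 (log2, SE, BH-adjusted p = 9.7e-04 in limma). Irf1, which binds interferon-response elements of class I and Psmb9 promoters, had 20.5, 21.2 and 22.3 FPKM with WT medium and 13.7, 14.1 and 17.3 with Alox5KO medium, and fell by 0.49 (BH-adjusted p = 0.014 in limma). Nfkb1, a subunit of NF-kB, fell by 0.74, while its partner Rela and the promoter-binding factor Nfyc had log2 fold changes of -0.17 and -0.14 that did not pass.

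Of 9 tested interferon receptor and kinase genes 3 fell, 1 rose and 5 did not pass, so 44.4% were called, against 20.7% of all genes. Jak2, the kinase of the interferon-gamma receptor and many cytokine receptors, had 323, 329 and 315 FPKM with WT medium and 106, 97.5 and 77.9 with Alox5KO medium, and fell by 1.78 (BH-adjusted p = 1.7e-05 in limma). The type I receptor subunit Ifnar1 fell by 0.74 and the interferon-gamma receptor subunit Ifngr2 by 0.55. Its partner Ifngr1 rose by 0.37 (BH-adjusted p = 0.049 in limma), a call lost when replicate 1 or 2 of WT medium or replicate 1 or 3 of Alox5KO medium was left out. Jak1 and Il10rb had log2 fold changes of 0.04 and -0.09. Of 7 interferon genes with a row, 5 were listed at 0 in all libraries, and Ifnb1 and Ifne had at most 0.463 FPKM.

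Of 6 tested costimulatory and checkpoint ligands 2 rose and 2 fell, or 66.7%, against 20.7% of all genes. Cd274, the checkpoint ligand PD-L1, had 2.42, 1.49 and 2.53 FPKM with WT medium and 5.06, 4.45 and 3.84 with Alox5KO medium and rose by 0.80 (BH-adjusted p = 0.010 in limma), and Cd276 rose by 0.84. Icoslg, the ligand of ICOS on T cells, fell by 1.62 and Cd40 by 0.65, the latter call being lost without WT-medium replicate 2 (adjusted p = 0.053, limma). Cd80 and Tnfsf9 had log2 fold changes of 0.17 and -0.30. Among 6 tested class I-like genes outside the MHC, 2 fell, or 33.3%, against 10.6% of all genes called lower: Procr, the protein C receptor with a class I fold, by 1.51, and Raet1e, a ligand of the NKG2D receptor, by 0.62, a call lost with any library left out other than WT-medium replicate 3. Fcgrt, the Fc receptor FcRn that pairs with B2m, had 85.0 ± 10.4 and 97.7 ± 19.2 FPKM, and Cd1d1, which shows lipids, 12.2 ± 1.21 and 11.3 ± 1.84 (SD, n = 3 per group).

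**Figure D5:**
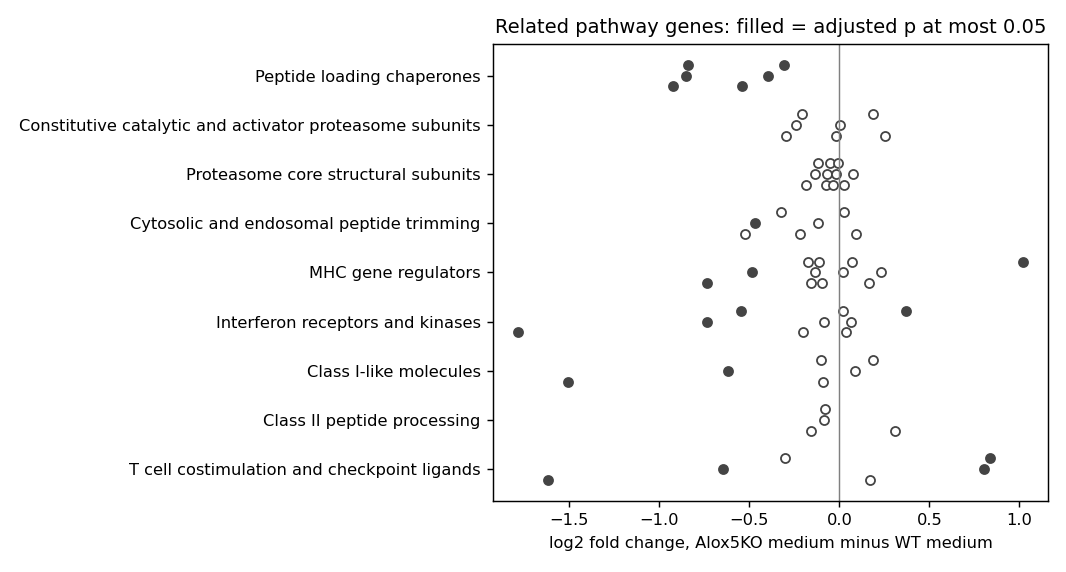
Log2 fold change (x axis, Alox5KO medium minus WT medium, limma) of every tested gene in 9 lists related to antigen presentation, filled where adjusted p is at most 0.05. All 6 chaperones lie below 0 and are filled, both proteasome lists have no filled point, and regulators, receptors and costimulatory ligands have filled points on both sides.

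Some cell type markers differed between the media beside the falls of Psme2, Psmb9 and Psmb10. The 8 leukocyte markers summed to 35.4 to 42.9 FPKM with WT medium and 18.1 to 20.3 with Alox5KO medium, most of it Coro1a, an actin regulator, at 31.0 ± 3.54 and 11.8 ± 0.292 FPKM (SD, n = 3 per group). Of 5 tested leukocyte markers 1 fell and 4 did not pass, so 20% were called, against 20.7% of all genes. The defining marker Ptprc was listed at 0.196 FPKM or less in every library. The 15 macrophage and dendritic cell markers summed to 37.8 to 42.2 and 27.2 to 41.8 FPKM, with Cd14 the most abundant at 20.8 ± 0.533 and 15.5 ± 1.70 (SD, n = 3 per group) and Cd163 and C1qc listed at 0 in all libraries. Of the 4 tested, Cd14 and Zbtb46 fell, or 50%, against 20.7% of all genes called. Lyz2, second in level, had 9.20 ± 3.17 and 13.7 ± 5.46 FPKM and did not pass. The 9 mast cell markers summed to 43.4 to 61.4 and 22.3 to 32.3 FPKM, mostly Cpa3, while Fcer1a, Ms4a2 and Tpsb2 were listed at 0 in all libraries. Only 2 of the 9 were tested, of which 1 fell and 1 did not pass, or 50% called, against 20.7% of all genes. The 7 endothelial markers with a row summed to 13.2 to 15.3 and 10.6 to 12.7 FPKM, with Egfl7 at 8.64 ± 0.297 and 8.43 ± 0.598 (SD, n = 3 per group). Tek, the other tested one, fell from 5.17 ± 1.11 to 3.14 ± 0.388, so 50% were called, against 20.7% of all genes. The 12 cardiomyocyte markers summed to 34.3 to 59.6 FPKM with WT medium and 108 to 135 with Alox5KO medium, mostly Tnnt2. Of the 9 tested 4 rose, 0 fell and 5 did not pass, so 44.4% were called, against 20.7% of all genes. The 13 fibroblast markers had overlapping sums of 12871 to 13539 and 12352 to 14009 FPKM, although 4 of them fell and 3 rose. That is 53.8% called, against 20.7% of all genes. Dcn, the matrix proteoglycan decorin, fell, with 2219 ± 711 FPKM in WT medium and 134 ± 66.3 in Alox5KO medium (SD, n = 3), and Lum, Pdgfra and Fn1 fell too, while Col3a1, Vim and Tcf21 rose. Fewer cells of a type and less RNA per cell cannot be told apart in bulk libraries, and the part of these markers in the falls was not tested.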

How the data were processed

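Gene expression was measured in 6 libraries, 3 per medium, with group and replicate number taken from the sample titles. RNA was extracted with TRIzol and libraries were made with a NEBNext Ultra kit, per the labels' protocols. The submitters' processing notes name, with no role given, mm10 as build and, among tools, HISAT2 2.0.5 and featureCounts 1.5.0-p3. The labels give mouse, but 32883 of 33682 rows carry rat Ensembl identifiers and 0 carry mouse ones. The rat build and the strand setting are not given in the sources used here, and coordinates are as the table prints them. The authors deposited FPKM values with the length of every gene, per the file headers.

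Within each library, FPKM times gene length came in even steps, so reads could be recovered, and 100% of values above 0 fell within 0.05 of a whole read. Values were tested as log2(FPKM + 1) for rows averaging 1 FPKM or more, with limma 3.58.1 in R 4.3.3 (trend, robust prior, two-sided, Benjamini-Hochberg over all 12341 genes at 0.05, no replicate block). The fit was tested on simulated data in which every gene was given the same scatter. That test therefore does not extend to the class I chain rows, whose spread was wider than that of most genes. Members, lists and tests were chosen with earlier results of these data known, so counts over them are descriptions. Every tested member is named, as are untested ones with 10 reads or more in a library, and from each related list up to 4 genes of smallest p, up to 2 that did not pass, and the most abundant marker. Other names, rarer members and markers at 0 included, were chosen after their values were seen. Alternatives were other pseudocounts, filters, scalings, priors, a replicate block, summed RT1- rows and each library left out. No rat sequences were used here. Of the regulator list, 1 gene is not reported here and was left out of its counts.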

Additional observations from a re-analysis of the deposited data

How the results depend on the processing

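A total of 17 alternatives were run, and none moved the median log2 fold change of all genes by over 0.1. The planned count tests edgeR and DESeq2 were not run because the deposited unit is FPKM, and limma-voom on the recovered reads, which called 4 class I rows lower and 1 higher, was chosen in their place after seeing the data. Over all genes, 1238 were higher and 1313 lower in limma, and leaving out 1 library gave 791 to 1226 higher and 862 to 1325 lower, the lowest counts being those without WT-medium replicate 1. Class I rows called higher numbered 1, against 0 without the filter, with a filter at 5 FPKM, after quantile normalization, with the replicate block, without trend and robust prior and with RT1- rows summed, and 0 to 1 with a library left out. Class I rows called lower numbered 4, against 0 without the filter, 2 with TPM scaling, 2 without trend and robust prior, and 0 to 5 with a library left out. With a filter at 5 FPKM or rows summed, RT1-CE5 was not in the fit. The other causes were not tested. Class II rows, tested only without the filter, gave 0 calls.

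Whether same-numbered libraries form pairs could not be settled from their values, because all correlations were weak. Deviations from the group means correlated at -0.096, 0.105 and 0.167 for same-numbered libraries and at -0.192 to 0.101 for the others. Not every library correlated best with its own number. With the replicate number as a block, 1277 genes called higher and 1375 genes called lower resulted in limma, with 0 class I rows higher and 4 lower, Psmb10 and RT1-CE5 being lost and RT1-A2 gained. The summed RT1- chain level differed by -0.25 on the log2 scale, and by -0.63 with all class I rows, an alternative chosen after seeing the data. Among 66 named genes, 1027 of 1098 log2 fold changes under alternatives kept their direction and side of the threshold, 48 lost the call (28 with a library left out), 5 gained it and 18 changed sign, all of genes that did not pass. The Psmb4 log2 fold change was 0.065 after quantile normalization, 0.043 with TPM scaling, 0.00948 in limma-voom and -0.094 to 0.022 with a library left out. Ctsl had 0.076 and Ctsb 0.024 after quantile normalization. With a library left out, Tapbpl ran from -0.15 to 0.20, Tap2 from -0.13 to 0.41, Lap3 from -0.042 to 0.070, Jak1 from -0.0088 to 0.11, Cd1d1 from -0.20 to 0.017 and Ctsb from -0.23 to 0.060. Class II rows, Nlrc5, Psme1 and 9 chain rows were below the filter, and what their low read numbers owe to depth was not tested.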
